A study of Danio rerio with 20 samples.

Results

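The comparison described here is that of oligodendrocyte precursor cells (OPCs) from zebrafish exposed to 4-aminopyridine (4AP) with OPCs from the matching controls. It takes the 5 libraries titled OPC_4AP-1 to -5 and the 5 titled OPC_4AP_ctrl-1 to -5, which are 10 of the 20 libraries of the series, and it covers every gene in them. Both groups are sorted OPCs from zebrafish (Danio rerio), the exposure lasted 16 hours, and the treatments are given as "4AP" and "4AP control". The agent used in the control, the strain, the reporter behind the sort and the age of the fish are not given in the sources used here. Sequencing was from the 3' end of transcripts, from 1 ng or 4 ng of purified RNA, and the input of each library is not given. The other 10 libraries belong to a demyelination experiment and are not used here. No label says whether the numbered libraries came from separate groups of fish, so the p-values measure the spread between these libraries, which may be technical.

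4AP blocks voltage-gated potassium channels, which prolongs action potentials and raises transmitter release, and it is used in fish to raise neuronal activity. OPCs are the dividing progenitors that give rise to myelin-forming oligodendrocytes. They receive synaptic input from axons, respond to growth factors such as PDGF and FGF, and carry the proteoglycan Cspg4 (NG2) on their surface. Immediate early genes, among them fos, jun and egr genes, are transcribed soon after a cell is stimulated and their transcripts are short lived.

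The libraries did not form 2 even groups. The files of controls 1 to 4 carry the name prefix P1, and those of control 5 and of all 5 4AP libraries carry P2; what the prefix stands for is not given in the sources used here. Controls 1 to 4 held 163158 to 323598 reads on genes, control 5 held 897620, and the 4AP libraries held 356494 to 1744483. Genes with at least 1 read numbered 9750 to 11048 in controls 1 to 4, 20281 in control 5 and 17096 to 22644 in the 4AP libraries. Reads in introns made up 34.3% to 38.5% of gene reads in controls 1 to 4, 20.5% in control 5 and 24.3% to 29.8% in the 4AP libraries. A set of 14 genes, chosen for having at least 95% of their reads in introns and at least 0.5% of the reads of some library, held 20.8% to 25.5% of the reads of controls 1 to 4, 7.24% in control 5 and 7.77% to 9.42% in the 4AP libraries. Control 5 was therefore on the 4AP side of the other controls in depth, genes detected and this read class. Because prefix and treatment differ together in every library but control 5, their parts in a difference cannot be told apart, and the genes named below are set against control 5 as well as tested against all controls. The medians of the gene lists against controls 1 to 4 (the P1 controls) and against control 5 are plotted further on.

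**Figure D1:**
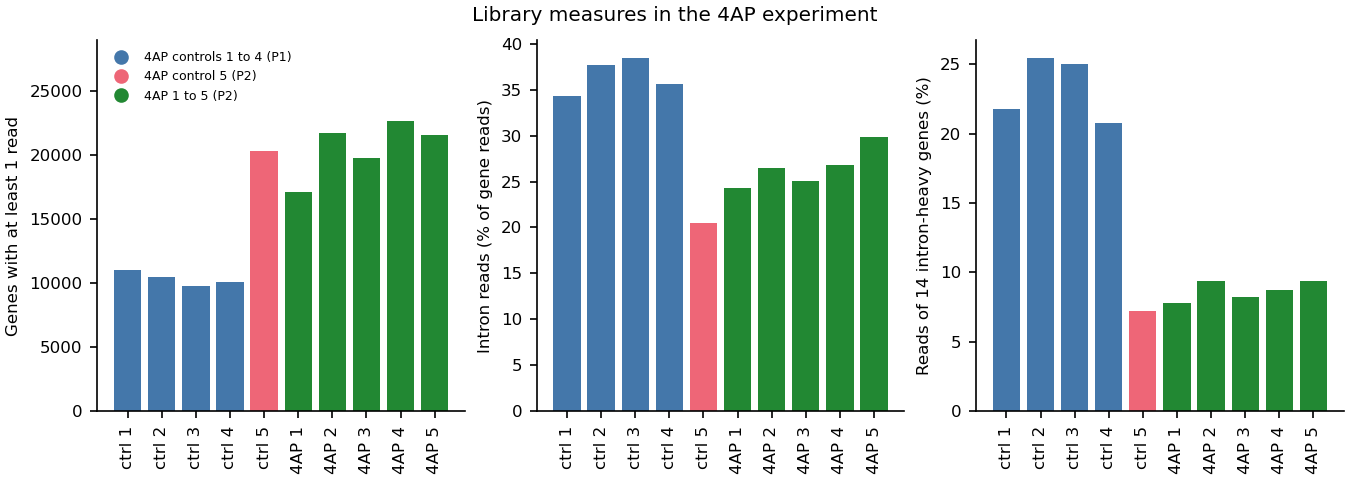
Genes with at least 1 read, reads in introns as a percent of gene reads, and the percent of reads on 14 intron-heavy genes, as bars for each of the 10 libraries. Control 5, with 20281 genes and 20.5% intron reads, lies beside the 4AP libraries and away from controls 1 to 4.

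The OPC label was checked against its defining markers. olig2, a transcription factor of the oligodendrocyte lineage, had 17 to 29 reads in each P1 control, 66 in control 5 and 32 to 223 in the 4AP libraries. sox10, which acts throughout the lineage, had 0 to 3 reads in the P1 controls, 39 in control 5 and 9 to 97 in the 4AP libraries. The radial glia gene gfap had 0 reads in each of the 4 P1 controls, 34 in control 5 and 7 to 50 in the 4AP libraries. The neuronal gene elavl3 had 4 to 13 reads in the P1 controls, 200 in control 5 and 56 to 394 in the 4AP libraries. Its reads outnumbered those of olig2 in control 5 and in each 4AP library. In the P1 controls a count of 3 reads stands at 9.27 to 18.4 CPM (counts scaled to a common library size) when plain library totals are used. On that scale it stands at 3.34 CPM in control 5 and at 1.72 to 8.42 CPM in the 4AP libraries. Gene values below use TMM-scaled library sizes. There, 3 reads of olig1 in control 1 stood at 12.6 CPM, and 3 reads of sox10 in control 4 at 21.8 CPM. Markers near these levels could not be measured in the P1 controls. These floors cover counting error only.

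Of 5161 genes with enough reads to test, 13.1% were called at an adjusted p under 0.05 by edgeR's quasi-likelihood test with Benjamini-Hochberg adjustment: 2.98% were higher with 4AP (154 genes) and 10.1% were lower (520 genes). The direction of a fold change depends on the scaling, so changes are best read against the median of all tested genes, which was a log2 fold change of 0.19 with TMM scaling and 0.55 with library totals alone. With library totals 411 genes were higher and 207 lower, so 66.5% of the calls were higher in place of 22.8%. Against the P1 controls alone the median gene differed by 0.41 and against control 5 by -0.01, both in log2 CPM. Leaving control 5 out raised the calls to 48.9% of 4373 genes (26.4% higher and 22.5% lower). List counts without control 5 given below are to be read beside these shares. The filter could pass a gene on its 4AP reads alone, in that fit and also in the main fit. For example, gpx1a had 0 CPM in each P1 control and was called higher in the fit without control 5. Main-fit calls of higher genes with few reads in the controls, such as rtn4r and hs3st4 below, are to be read with this limit. Setting control 5 alone against the 5 4AP libraries called 0 of the same 5161 genes with edgeR, and 247 had an unadjusted p under 0.05, and no other tool was run on these 6 libraries.

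For 4135 of the 5161 genes (80.1%), control 5 lay nearer to the 4AP mean than to the mean of the P1 controls. This held for 482 of the 520 lower genes (92.7%) and for 112 of the 154 higher genes (72.7%). The higher genes were a median of 1.97 above the P1 controls and 0.71 above control 5 in log2 CPM, and the lower genes were -1.71 from the P1 controls and -0.21 from control 5. Control 5 was one of the 5 controls tested, so these counts describe the calls and do not stand beside them as further evidence. Groups with no overlap between the 5 4AP and 5 control libraries were found for 9.53% of genes (5.95% above and 3.58% below), and for 256 of the 674 called genes. These 256 were 121 of the 154 higher genes and 135 of the 520 lower genes.

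Calls on single genes also depended on single libraries. Of 72 genes chosen for naming by rule, 38 were called whichever 1 of the 10 libraries was left out, and 34 lost the call in at least 1 such fit; 0 changed direction. The call was lost in 9 of 10 fits for ccnd2a, gpm6ab and kmt2ca, in 8 for crebbpb, itga9, notch1a and pfn1, and in 7 for btg2, cspg4, psma3 and ugt8, with edgeR adjusted p up to 0.133. fosab, egr4, ier2a, hes2.2, hspb1, rtn4r, hs3st4, ncam2, plxna3, aclya, cox7a2a and atp5po were among those called in every fit.

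**Figure D2:**
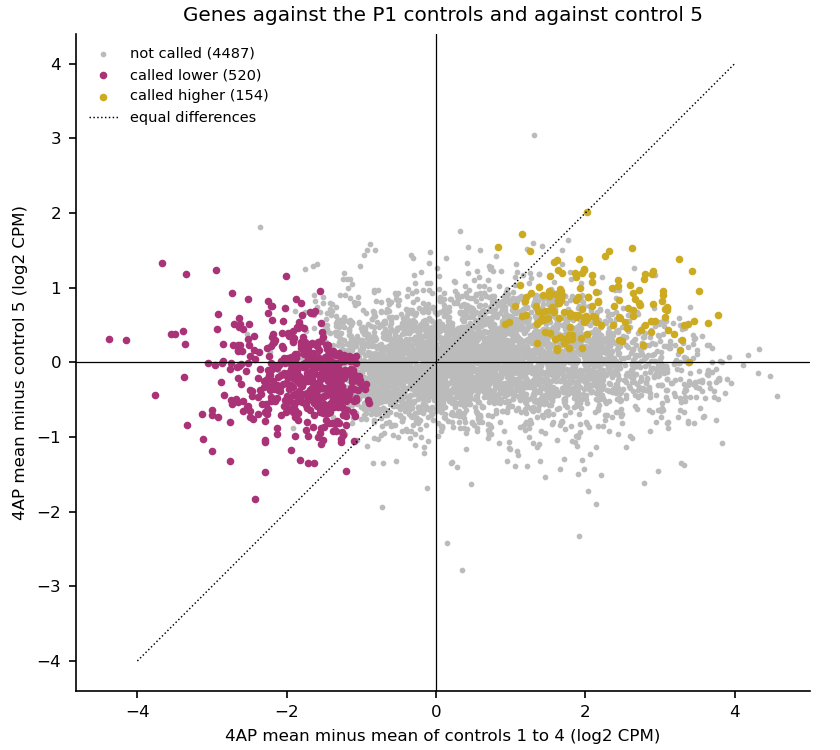
Each point is 1 of 5161 tested genes, with the 4AP mean minus the mean of controls 1 to 4 on the x axis and the 4AP mean minus control 5 on the y axis, both in log2 CPM. The 520 genes called lower spread along the x axis and sit near 0 on the y axis (median -0.21), while all 154 called higher lie above 0 there (median 0.71).

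Among immediate early genes, the calls were on the lower side in the cells from 4AP-exposed fish. Of 36 genes on the list, 19 could be tested, and 6 fell (31.6%), 0 rose and 13 were not called, against 10.1% of all genes that fell; the median log2 fold change was -0.80 beside 0.19 for all genes. The 6 were fosab and junba, which encode subunits of the AP-1 transcription factor, the zinc-finger factors egr4 and klf2a, and the early response genes ier2a and btg2. The list stood at -0.70 against the P1 controls and at -0.57 against control 5, and 16 of the 19 genes lay below control 5. Its median by library was 0.15 to 0.53 log2 units above the mean of the 10 libraries in the P1 controls, 0.45 above it in control 5 and -0.60 to 0.01 from it in the 4AP libraries. Control 5 thus lay within the range of the P1 controls for this list. Under library totals the list's median was -0.42, and 3 of its genes were called lower. Without control 5, 8 of 17 tested members were lower and 5 were higher, beside 22.5% and 26.4% of all genes in that fit. Over the fits that left out 1 library 3 to 8 were lower and 0 to 5 higher.

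fosab (chromosome 20, 46552311 to 46554440, GRCz11) had 682, 925, 748 and 756 CPM in controls 1 to 4, 667 in control 5, and 343, 229, 310, 304 and 436 in 4AP libraries 1 to 5. All 5 4AP libraries were below all 5 controls, and control 5 sat just under the P1 controls. The log2 fold change was -1.22 ± 0.24 (SE) with an edgeR adjusted p of 0.00616, and the 4AP mean was -1.06 from control 5. egr4 (chromosome 23, 45579497 to 45581626) had 71.5, 150, 150 and 43.6 CPM in controls 1 to 4, 70.6 in control 5, and 36.2, 11.7, 38.8, 22.3 and 30.1 with 4AP. The groups did not overlap, control 4 was the lowest control, and the fold change was -1.83 ± 0.42 (edgeR adjusted p = 0.0117), or -1.35 against control 5. junba (chromosome 1, 51732979 to 51734535) had 173, 190, 210 and 131 CPM in controls 1 to 4, 126 in control 5, and 41.8, 57.6, 53.7, 84.2 and 105 with 4AP. Here too the groups did not overlap; the fold change was -1.25 ± 0.31 (edgeR adjusted p = 0.0188) and -0.92 against control 5.

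For the other 3 called members, control 5 was nearer to 4AP than to the P1 controls. ier2a had 968, 1100, 1010 and 844 CPM in the P1 controls, 357 in control 5, and 292, 156, 228, 243 and 312 with 4AP. Its groups did not overlap, but control 5 was nearer to 4AP: the fold change was -1.79 ± 0.31 overall (edgeR adjusted p = 0.00331) and -0.57 against control 5. klf2a had 72.0 to 114 CPM in the P1 controls, 26.5 in control 5 and 20 to 44.6 with 4AP, so control 5 fell inside the 4AP range and the difference from it was 0.03. btg2 had 196 to 288 CPM in the P1 controls, 98.4 in control 5 and 61.2 to 136 with 4AP, and it was -0.10 from control 5. Among members that were not called, jun differed by -0.69 (edgeR adjusted p = 0.0863), egr1 by -0.42 (0.455) and atf3 by -0.08 (0.937). Counted on exon reads, which called 5.66% of genes (0.876% higher and 4.79% lower), 3 of 17 members were lower.

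**Figure D3:**
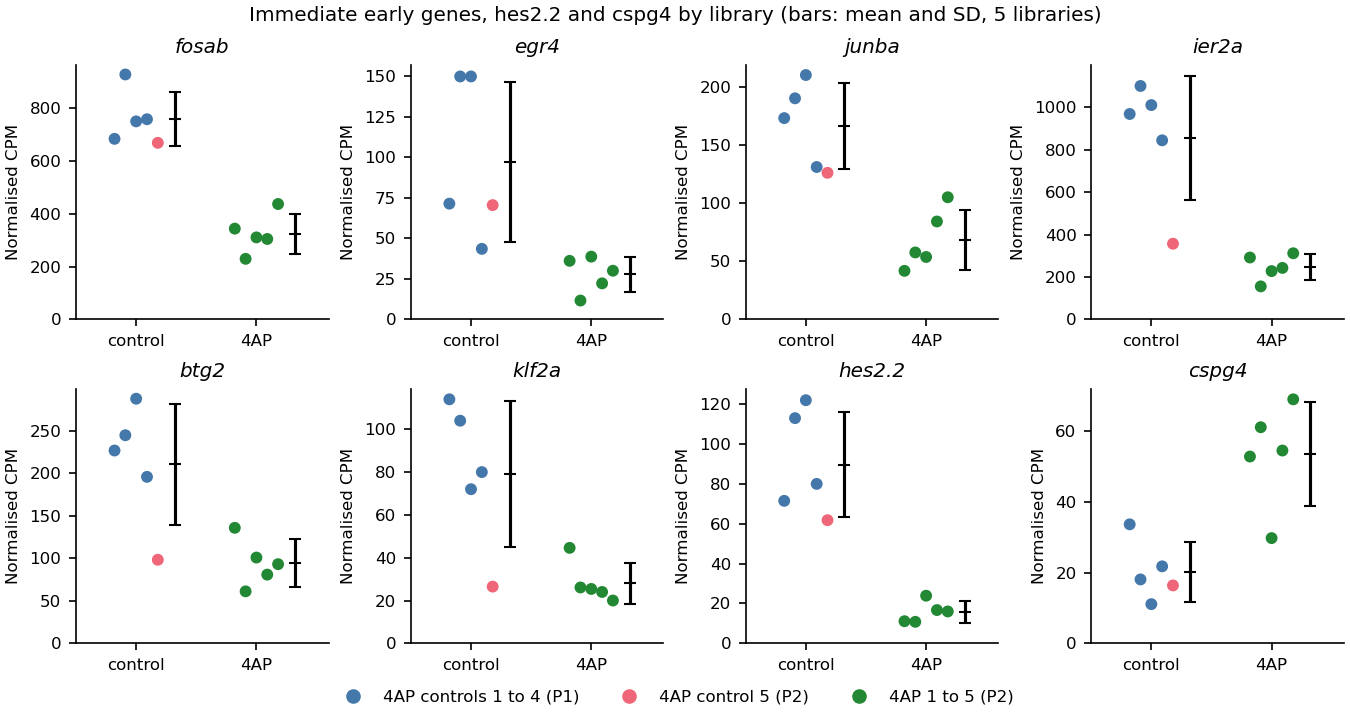
TMM-normalised CPM in each library for the 6 called immediate early genes, hes2.2 and cspg4; points are libraries and bars are the mean and SD of 5 libraries. Control 5 sits with controls 1 to 4 for fosab, egr4, junba, hes2.2 and cspg4 and with the 4AP libraries for klf2a and btg2. For cspg4, controls 1 to 4 had 2 to 8 reads and control 5 had 13.

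Of 10 ERK feedback genes 1 fell and of 13 cAMP enzymes 1 fell, shares of 10% and 7.69% that are close to the 10.1% of all genes. dusp5, a phosphatase that inactivates ERK, fell by 3.0 on the log2 scale (edgeR adjusted p = 0.00316) and was -1.19 from control 5. prkar1b, a regulatory subunit of protein kinase A and the cAMP gene that fell, was -2.44 from the P1 controls and 0.35 from control 5. The small heat shock protein hspb1 had 219, 290, 210 and 182 CPM in controls 1 to 4, 266 in control 5, and 80.8, 85.5, 91.0, 78.1 and 154 with 4AP. Its groups did not overlap and 4AP library 5 was the highest of the 4AP libraries. The change was -1.26 ± 0.29 (edgeR adjusted p = 0.0116), with differences of -1.46 from control 5 and -1.2 from the P1 controls. zfand2a, a zinc-finger gene induced by heat shock and arsenite in mammals, fell by 1.68 (edgeR adjusted p = 0.0136) and was -1.09 from control 5, with control 4 at 29.1 CPM inside the 4AP range.

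Ion channels and transmitter receptors were mostly too sparse to test. Of 111 potassium channel genes, the class that 4AP acts on, 6 passed the filter and 0 were called, and of 65 sodium and calcium channel genes 3 passed and 0 were called; at an unadjusted p under 0.05 edgeR had 3 and 1 of these genes, DESeq2 called 1 of each class, and against control 5 alone neither class had a gene at an unadjusted p under 0.05. Of 18 glutamate and GABA receptor genes tested, 3 fell (16.7%, beside 10.1% of all genes) and 0 rose. As a list these receptors did not fall: the median log2 fold change was 0.27, with 12 positive and 6 negative. The list was 0.71 above the P1 controls and 0.23 above control 5, and 14 of 18 genes lay above control 5. DESeq2 called 2 of the 18 higher and 3 lower. grm8a, a metabotropic glutamate receptor, had 554 to 661 CPM in the P1 controls, 98.4 in control 5 and 112 to 160 with 4AP, so it was -2.19 from the P1 controls and 0.38 from control 5. grin1b, an NMDA receptor subunit, had 109 to 145 CPM in the P1 controls, 37.8 in control 5 and 11.1 to 33.3 with 4AP, with no overlap between groups. grin2cb, another NMDA receptor subunit, fell by 1.58 and was level with control 5. Of the reads on these genes, 99.4% for grm8a, 74.6% for grin1b and 99.5% for grin2cb were in introns. Of 17 genes of synaptic vesicle release edgeR and DESeq2 each called 0 and edgeR had 1 at an unadjusted p under 0.05, with a median of 1.36 against the P1 controls and -0.31 against control 5.

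In the Notch pathway, which keeps OPCs from differentiating through hes and her repressors, 19 genes were tested, 2 fell and 1 rose. These are shares of 10.5% and 5.26%, beside 10.1% and 2.98% of all genes. hes2.2 (chromosome 8, 46896445 to 46897734), a member of the Hes repressor family, had 71.5, 113, 122 and 80.0 CPM in controls 1 to 4, 61.8 in control 5, and 11.1, 10.8, 23.9, 16.7 and 16.0 with 4AP. The groups did not overlap, and control 5 was nearer to the other controls than to 4AP. The change was -2.47 ± 0.37 (edgeR adjusted p = 0.0029), and -1.83 against control 5. hes6, which in mammals antagonises Hes1, fell by 1.29 (edgeR adjusted p = 0.04) and was -0.59 from control 5. The receptor notch1a rose by 1.54 ± 0.45 (edgeR adjusted p = 0.0337). It had 8.42 to 16.6 CPM in the P1 controls, which is at or under the level of a few reads. Control 5 had 68.1 CPM and the 4AP libraries 68.4 to 109, a difference of 0.30 from control 5. The list as a whole was 1.36 above the P1 controls and -0.92 from control 5, with 14 of 19 genes below control 5. Without control 5, 11 of 17 rose and 2 fell, beside 26.4% and 22.5% of all genes in that fit.

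Most OPC markers were not called. Of 17 genes on the OPC identity list 9 were tested, and 2 rose, 0 fell and 7 were not called, against 2.98% of all genes that rose; the median was 0.81, and 0.86 and 0.24 against the P1 controls and control 5. cspg4 (chromosome 25, 6507141 to 6629281), which encodes NG2, had 33.7, 18.1, 11.1 and 21.8 CPM in controls 1 to 4, 16.4 in control 5, and 52.9, 61.2, 29.8, 54.6 and 69.1 with 4AP. Control 5 lay among the P1 controls, and control 1 was above 4AP library 3, so the groups overlapped. The P1 values of cspg4 rest on 2 to 8 reads, at or near the level of a few reads, and control 5 on 13. The 4AP libraries had 19 to 98 reads of cspg4. The change was 1.42 ± 0.41 (edgeR adjusted p = 0.0323) and 1.49 against control 5; 94.4% of its reads were in introns. sox6, a transcription factor that holds OPCs in the precursor state, had 46.3 to 153 CPM in the P1 controls, 183 in control 5 and 187 to 378 with 4AP, with no overlap. It rose by 1.15 ± 0.34 (edgeR adjusted p = 0.0334) and was 0.55 above control 5. olig2 and olig1, the founding transcription factors of the lineage, differed by -0.23 (edgeR adjusted p = 0.616) and -0.07 (0.926). Without control 5, 4 of 8 tested members rose and 0 fell, and over the fits that left out 1 library 0 to 4 rose. The summed reads of the list made up 0.0331% to 0.0631% of the P1 controls, 0.0637% of control 5 and 0.0859% to 0.106% of the 4AP libraries. In bulk libraries, a larger share of cells of a type and more RNA per cell cannot be told apart.

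PDGF and FGF receptors carry the growth signals of OPCs. All 9 genes tested had a positive fold change, with a median of 0.81, and 2 rose (22.2%, beside 2.98% of all genes). They were fgfr1a, by 1.85 (edgeR adjusted p = 0.0211), and fgfr2, by 1.92 (edgeR adjusted p = 0.0218). Neither overlapped between groups. fgfr1a was 2.64 above the P1 controls and 0.92 above control 5, and fgfr2 was 3.45 and 0.56 above them. In the P1 controls fgfr1a had 0 to 25.3 CPM and fgfr2 0 to 27.7 CPM, at or near the level of a few reads. Control 5 had 35.3 and 107 CPM of them, and the 4AP libraries 50.1 to 102 and 141 to 209. The list's median was 1.68 against the P1 controls and 0.39 against control 5, and 0 to 4 of its genes rose over the fits that left out 1 library (4 of 8 without control 5). Of 4 neuregulin and ErbB genes tested, nrg3b, a ligand of ErbB4, fell by 1.43 (25%, beside 10.1% of all genes that fell). Its difference from control 5 was 0.26, and 99.6% of its reads were in introns.

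The Wnt pathway, which times the step from OPC to oligodendrocyte, had 5 genes that rose and 0 that fell among 23 tested. The share that rose was 21.7%, beside 2.98% of all genes, and the median log2 fold change was 0.78. Of the ligands and secreted regulators, sfrp5, a secreted Wnt antagonist, had 0, 9.07, 0 and 7.27 CPM in controls 1 to 4, 24.0 in control 5, and 175, 45.0, 70.1, 32.9 and 41.1 with 4AP. The groups did not overlap, 4AP library 1 was far above the others, and the difference was 1.22 from control 5. The P1 values of sfrp5 lie at or under the level of a few reads. wnt5b, a ligand of non-canonical Wnt signalling, had 4.53 to 8.42 CPM in the P1 controls, 32.8 in control 5 and 41.8 to 69.1 with 4AP. For wnt5b too, the P1 values lie at or under the level of a few reads. wnt5b rose by 1.87 ± 0.48 (edgeR adjusted p = 0.0199) and was 0.70 above control 5. znrf3, a ubiquitin ligase that removes Frizzled receptors, rose by 1.90 (edgeR adjusted p = 0.0205) and was 1.03 above control 5.

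Of the nuclear factors of the pathway, tcf7l2, a partner of beta-catenin required for oligodendrocyte differentiation in mammals, had 46.3, 49.9, 38.8 and 21.8 CPM in controls 1 to 4, 70.6 in control 5, and 89.1, 118, 97.0, 114 and 117 with 4AP. Control 5 stood between the P1 controls and 4AP, and the groups did not overlap. The change was 1.15 ± 0.32 (edgeR adjusted p = 0.0282), and 0.57 against control 5. tcf7l1b, its paralogue, rose by 1.40 (edgeR adjusted p = 0.0286) and was 0.38 above control 5. All 5 genes had control 5 nearer to 4AP, as did 72.7% of all 154 higher genes. The list was 1.33 above the P1 controls and 0.28 above control 5; over the fits that left out 1 library 1 to 12 genes rose, with 12 of 21 and 1 lower without control 5.

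Genes of myelin and of oligodendrocyte differentiation had 4 that rose (22.2%, beside 2.98% of all genes) and 0 that fell among 18 tested of 24. Their median was 0.77. Without control 5, 10 rose and 1 fell, and 0 to 10 rose over the fits that left out 1 library. The 4 were tcf7l2, qki2, gpm6ab and ugt8, and the other 14 were not called. The myelin protein genes mbpa, mpz and plp1a were not among the 4. qki2, an RNA-binding protein of the Quaking family that governs myelin transcripts in mammals, had 63.5 to 109 CPM in the P1 controls, 217 in control 5 and 207 to 306 with 4AP. gpm6ab, a proteolipid of the M6 family, had 21.0 to 50.9 CPM in the P1 controls, 300 in control 5 and 279 to 398 with 4AP. Control 5 was inside the 4AP range for both genes, and they were 0.31 and 0.17 above it. ugt8, which makes galactosylceramide, the main glycolipid of myelin, had 8.42, 18.1, 11.1 and 80.0 CPM in controls 1 to 4, 35.3 in control 5, and 103, 97.2, 62.7, 92.0 and 62.1 with 4AP. Control 4 was within the 4AP range and control 5 below it; the change was 1.51 ± 0.46 (edgeR adjusted p = 0.0397) and 1.14 against control 5. aclya, a zebrafish ATP citrate lyase gene whose product makes acetyl-CoA for lipid synthesis, went the other way and fell by 2.66 (edgeR adjusted p = 0.0029), with 105 to 167 CPM in the P1 controls, 42.9 in control 5 and 11.1 to 22.5 with 4AP. Myelin genes as a list took 0.0998% to 0.229% of the reads of the P1 controls, 0.277% of control 5 and 0.279% to 0.418% of the 4AP libraries.

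Of the 52 lists, that of synaptic and neural adhesion molecules had the most genes that rose by count. By share it did not lead. In it 22.5% rose, beside 2.98% of all genes and 28.6% of the chondroitin sulfate proteoglycan and tenascin list. Of 40 contactin, neurexin, neuroligin and related genes tested, 9 rose and 0 fell, and the median log2 fold change was 0.79. By family, 3 of 6 NCAM and L1 genes rose (ncam1a, ncam2 and nfasca), 2 of 3 Dscam genes (dscamb and dscaml1), 2 of 9 neurexins and neuroligins (nrxn2a and nlgn1), 1 of 5 contactins and contactin-associated genes (cntnap2a) and 1 of 8 Cadm, nectin and IgLON genes (cadm4). ncam2, a homophilic adhesion molecule, had 25.3, 18.1, 11.1 and 14.5 CPM in controls 1 to 4, 46.7 in control 5, and 44.6, 90.9, 86.5, 97.6 and 128 with 4AP. Control 5 was above the lowest 4AP library and below the other 4; the change was 1.77 ± 0.41 (edgeR adjusted p = 0.0131) and 0.82 against control 5. nlgn1, a postsynaptic partner of neurexins, rose by 1.18 (edgeR adjusted p = 0.0321) and was 0.93 above control 5. dscaml1, an adhesion molecule of the Dscam family, rose by 1.29 (edgeR adjusted p = 0.0466) and was 0.91 above control 5.

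The list of neural adhesion genes was 1.06 above the P1 controls and 0.32 above control 5, and 31 of 40 genes lay above control 5. The 9 that rose were 0.19 to 0.93 above control 5. Without control 5, 18 of 32 rose and 1 fell, and over the fits that left out 1 library 1 to 18 rose. These genes are long, with a median span of 250 kb beside 24.5 kb for all tested genes. A median of 86.9% of their reads lay in introns, beside 15.4% for all tested genes. Of the 1520 tested genes with most of their reads in introns, 6.18% rose and 5.99% fell. The median log2 fold change of that class was 0.61. It was 0.91 above the P1 controls and 0.295 above control 5. Whether the adhesion list differed from that class was not tested. On exon reads 6 of the 40 could be tested and 0 were called by edgeR, with 4 higher at an unadjusted p under 0.05 and a median exon log2 fold change of 1.32. On intron reads 35 could be tested and 0 were called by edgeR, with 6 higher and 2 lower at an unadjusted p under 0.05. DESeq2, on all reads, called 11 higher.

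Cadherins and protocadherins had 3 genes that rose (10%, beside 2.98% of all genes) and 0 that fell of 30 tested. cdh11, a mesenchymal cadherin, had 131 to 185 CPM in the P1 controls, 406 in control 5 and 400 to 900 with 4AP, and it was 0.37 above control 5. pcdh17 had 33.2 to 49.9 CPM in the P1 controls, 50.5 in control 5 and 69.6 to 126 with 4AP. Control 5 was just above the P1 controls and below every 4AP library, and the change was 1.18 ± 0.32 (edgeR adjusted p = 0.0251) and 0.87 against control 5. pcdh1b rose by 1.21 and was 0.69 above control 5. Without control 5, 17 of 29 rose and 5 fell, beside 26.4% and 22.5% of all genes in that fit. Among those that rose were pcdh1g22 and pcdh1g29, which had 0 to 11.1 and 0 to 8.42 CPM in the P1 controls.

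Of 47 axon guidance genes tested, 7 rose (14.9%) and 3 fell (6.38%), beside 2.98% and 10.1% of all genes, with a median of 0.72. By family, 3 of 10 plexins and neuropilins (plxna1a, plxna3 and nrp2a) rose and 1 (nrp2b) fell, the netrin ntn1a and the netrin receptor neo1a rose out of 5, epha3 rose and epha6 fell out of 12 Eph receptors and ephrins, and of 15 semaphorins 0 rose and sema4ab fell. Semaphorins are the ligands of plexins and neuropilins, and netrins guide axons through Neogenin and Dcc receptors. plxna3, a receptor for class 3 semaphorins, had 54.7, 45.3, 49.8 and 36.4 CPM in controls 1 to 4, 84.5 in control 5, and 159, 112, 154, 154 and 200 with 4AP. The groups did not overlap and control 5 was nearer to the other controls; the change was 1.45 ± 0.31 (edgeR adjusted p = 0.00849), and 0.83 against control 5.

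rtn4r (chromosome 5, 10765611 to 10946379), the Nogo receptor, through which myelin proteins inhibit axon growth, had 0, 4.53, 5.54 and 7.27 CPM in controls 1 to 4, 11.4 in control 5, and 33.4, 36, 38.8, 34.6 and 53.1 with 4AP. Control 5 was nearer to the P1 controls, whose values lie at or under the level of a few reads. The change was 2.49 ± 0.53 (edgeR adjusted p = 0.00809) and 1.53 against control 5. Each of the 7 higher guidance genes had groups that did not overlap, whereas the 3 lower ones, epha6, nrp2b and sema4ab, overlapped and were -0.18, 0.09 and 0.46 from control 5. Over all calls, 121 of the 154 higher genes and 135 of the 520 lower genes had groups without overlap. The 7 higher genes were 0.54 to 1.53 above control 5. The guidance list was 1.11 above the P1 controls and 0.37 above control 5. The medians of the 1520 genes with most of their reads in introns were 0.91 and 0.295 above them. In that class 6.18% rose and 5.99% fell, and whether the guidance list differed from it was not tested. Without control 5, 21 of 46 guidance genes rose and 5 fell. Over the fits that left out 1 library, 3 to 21 of them rose.

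**Figure D4:**
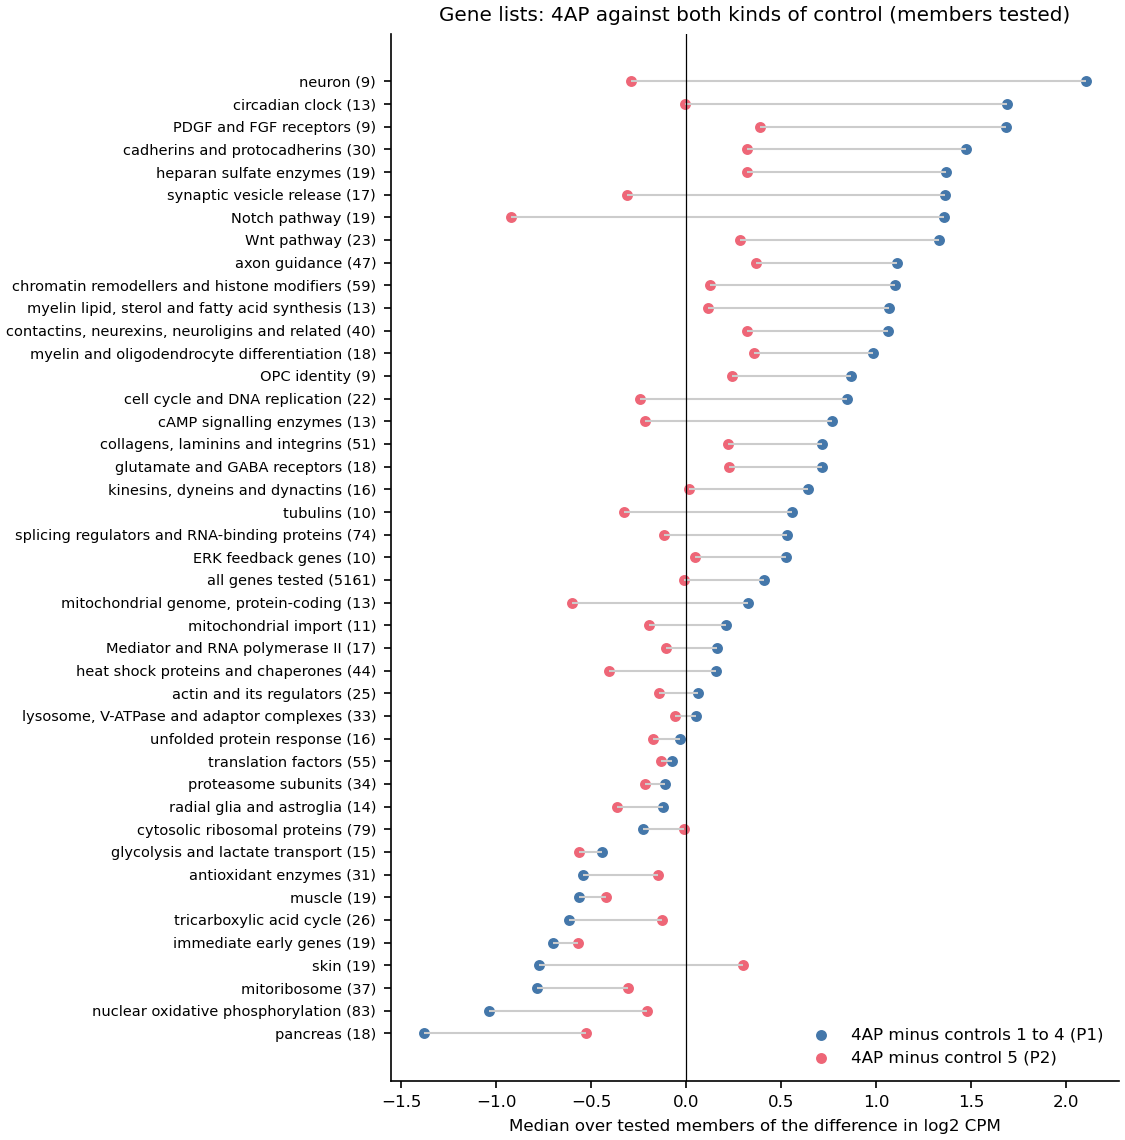
For gene lists with at least 9 tested members, the median over tested members (number in parentheses) of the 4AP mean minus controls 1 to 4 (blue) and minus control 5 (red), in log2 CPM. Immediate early genes stand at -0.70 and -0.57, whereas nuclear oxidative phosphorylation genes stand at -1.04 and -0.21 and Notch pathway genes at 1.36 and -0.92.

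Among collagens, laminins and integrins, 4 of 51 genes rose (7.84%, beside 2.98% of all genes) and 0 fell, with a median of 0.53. Over the fits that left out 1 library 0 to 15 rose (15 of 42 without control 5). fn1a, a fibronectin of the extracellular matrix, had 9.07 to 22.2 CPM in the P1 controls, 26.5 in control 5 and 45.1 to 69.3 with 4AP. The groups did not overlap and control 5 was nearer to the other controls; the change was 1.54 ± 0.39 (edgeR adjusted p = 0.0194) and 0.99 against control 5. itga9, an integrin subunit that binds tenascins and fibronectin, rose by 1.83 (edgeR adjusted p = 0.0331) and was 0.73 above control 5. The collagen VI chains col6a1 and col6a2 rose by 1.01 and 1.33 and were 0.26 and 0.33 above control 5. Of 7 chondroitin sulfate proteoglycan and tenascin genes, tnr, which encodes tenascin-R of the nodes of Ranvier and perineuronal nets, rose by 1.78 (edgeR adjusted p = 0.017) and was 0.88 above control 5, and cspg4 rose as given above.

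Enzymes and cores of heparan sulfate, which binds FGF and Wnt ligands, had 2 genes that rose and 1 that fell of 19. These shares were 10.5% and 5.26%, beside 2.98% and 10.1% of all genes. hs3st4 and hs6st1a, both sulfotransferases, rose by 2.52 (edgeR adjusted p = 0.0116) and 1.34 (edgeR adjusted p = 0.0167). hs3st4 had 0 to 14.5 CPM in the P1 controls, at or under the level of a few reads. It had 21.4 CPM in control 5 and 41.8 to 98.2 with 4AP. Both genes had groups without overlap and were 1.39 and 0.74 above control 5. The glypican gene gpc6a was one of the 14 intron-heavy genes; it had 23100 to 54500 CPM in the P1 controls, 4820 in control 5 and 3680 to 8170 with 4AP. It was -2.65 from the P1 controls and 0.23 from control 5.

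Nuclear genes of oxidative phosphorylation, whose products form the respiratory chain and ATP synthase, made up the largest block of lower genes among the 52 lists. Of 83 tested, 42 fell and 0 rose, and the median log2 fold change was -0.99 beside 0.19 for all genes. The share that fell was 50.6%, beside 10.1% of all genes and 72.2% of the pancreas list, which had fewer genes. The calls spread over the chain: 19 of 33 complex I subunits, 2 of 4 of complex II, 3 of 12 genes of complex III, 7 of 14 of complex IV, 10 of 19 of ATP synthase, and cytochrome c. A median of 0.926% of their reads lay in introns, and on exon reads 24 of 82 fell and 0 rose. Under library totals 19 fell and 0 rose, over the fits that left out 1 library 25 to 58 fell, and without control 5, 58 of 82 fell and 2 rose.

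The respiratory genes lay closer to control 5 than to the other controls. For all 42, control 5 was nearer to the 4AP mean than to the P1 mean, and 7 of the 42 had groups that did not overlap. Neither is particular to these genes. Control 5 was nearer to 4AP for 92.7% of all 520 lower genes, and 135 of the 520 had groups without overlap. The list's median was -1.04 from the P1 controls and -0.21 from control 5. Its median by library lay 0.42 to 0.81 above the mean of the 10 libraries in the P1 controls, at -0.29 in control 5 and at -0.63 to -0.18 in the 4AP libraries. cox7a2a (chromosome 17, 49983157 to 49995366), a subunit of cytochrome c oxidase, had 1120, 1210, 1030 and 946 CPM in controls 1 to 4, 277 in control 5, and 231, 225, 298, 250 and 177 with 4AP. Control 5 was inside the 4AP range; the change was -1.95 ± 0.34 (edgeR adjusted p = 0.00331), and -0.25 against control 5. atp5po, the stalk subunit of ATP synthase, had 1570 to 1710 CPM in the P1 controls, 380 in control 5 and 265 to 476 with 4AP, and was -0.11 from control 5. The 7 without overlap, ndufa1, ndufb4, ndufb5, ndufb6, atp5pf, atp5l and atp5f1d, fell by 0.88 to 1.53 and were -0.55 to -0.33 from control 5.

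**Figure D5:**
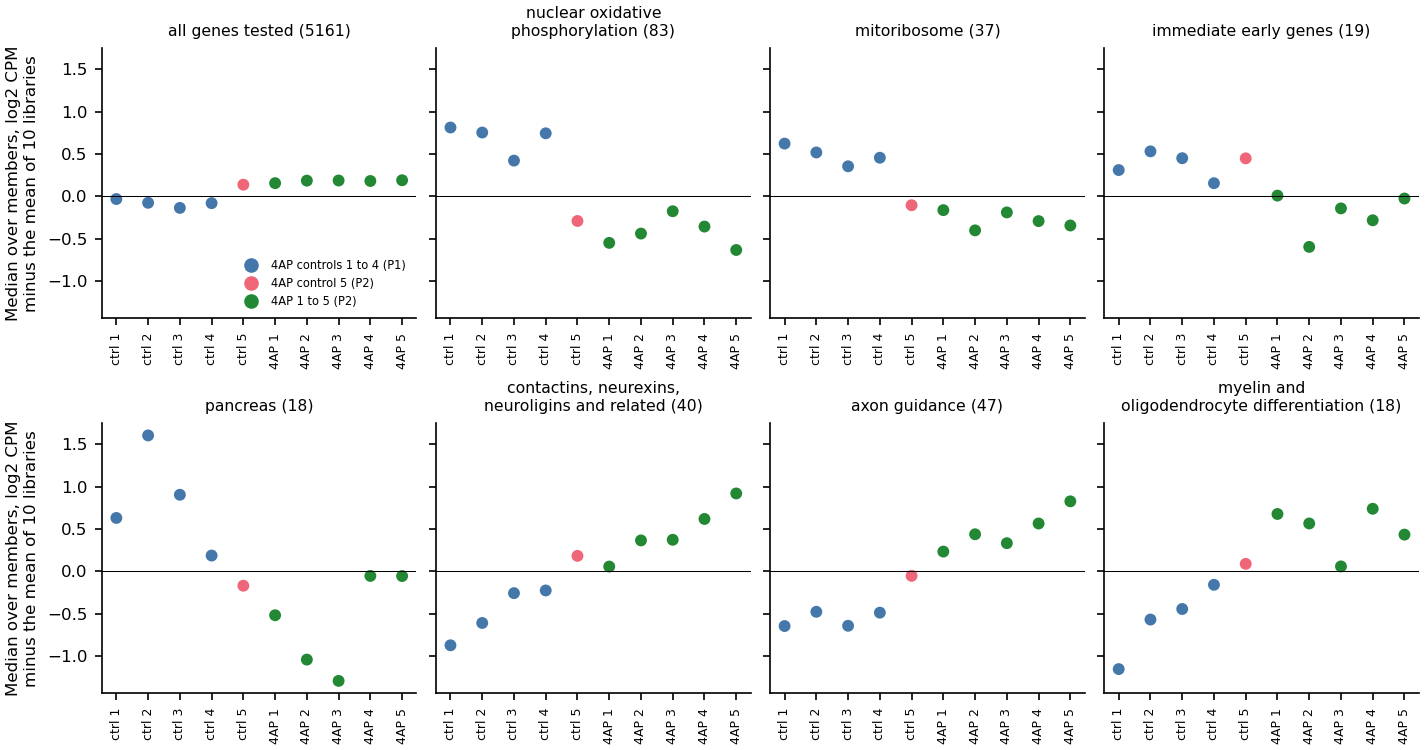
Median over list members of log2 CPM minus each gene's mean over the 10 libraries, for 8 lists in each library. Control 5 lies at -0.29 with the 4AP libraries for oxidative phosphorylation and at 0.45 with controls 1 to 4 for immediate early genes.

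The 13 protein-coding genes of the mitochondrial genome did not follow the nuclear ones. edgeR and DESeq2 each called 0 of 13, and edgeR had 0 at an unadjusted p under 0.05. Their median was 0.08; they were 0.32 above the P1 controls and -0.60 from control 5, and all 13 lay below control 5. Mitochondrial transcripts took 4.68% to 11.9% of the reads of the P1 controls, 20.5% of control 5 and 10.4% to 16.8% of the 4AP libraries. Against control 5 alone, 1 of the 13 had an unadjusted p under 0.05, and without control 5, 2 rose.

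Other mitochondrial lists had their calls on the lower side. Of 37 mitochondrial ribosomal protein genes 10 fell (27%, beside 10.1% of all genes) and 0 rose. The list's median was -0.79 (-0.79 against the P1 controls and -0.31 against control 5). Over the fits that left out 1 library 4 to 16 fell. mrpl30 had 116 to 147 CPM in the P1 controls, 51.7 in control 5 and 23.4 to 40.3 with 4AP, without overlap, and was -0.88 from control 5. Of 11 import genes 3 fell (27.3%), the small chaperones of the intermembrane space timm9 and timm10 and the channel gene timm23a. timm9 had 101 to 182 CPM in the P1 controls, 27.7 in control 5 and 10 to 32.8 with 4AP; timm9, timm10 and timm23a were -0.74, -0.70 and -0.11 from control 5.

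Of 26 genes on the tricarboxylic acid cycle list 6 fell (23.1%, beside 10.1% of all genes) and 0 rose. The median was -0.64, and -0.13 against control 5. mdh1aa, a cytosolic malate dehydrogenase and so not an enzyme of the mitochondrial cycle, had 681 to 926 CPM in the P1 controls. It had 361 CPM in control 5 and 195 to 292 with 4AP. Its groups did not overlap; it fell by 1.47 (edgeR adjusted p = 0.0043) and was -0.54 from control 5. The mitochondrial malate dehydrogenase gene mdh2 was not called (-0.39, edgeR adjusted p = 0.303). The other 5 that fell were sdhb, sdhdb, idh3b, suclg1 and dlst, which lay -0.36 to 0.30 from control 5. Of 15 genes of glycolysis and lactate transport, ldhba and gpia fell (13.3%, beside 10.1% of all genes) and were -0.50 and -0.59 from control 5. The list stood at -0.44 against the P1 controls and -0.57 against control 5, with 14 of 15 genes below control 5. Of 31 antioxidant genes 9 fell (29%, beside 10.1% of all genes) and 0 rose. Among the 9, gstp1 and txn were -0.43 and -0.24 from control 5 and -1.88 and -1.79 from the P1 controls.

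The share of ribosomal and translation genes that fell was below that of all genes (10.1%), and that of proteasome genes was above it. Of 79 cytosolic ribosomal protein genes 3 fell (3.8%), with a median of -0.19 and of -0.01 against control 5; the largest was rps27l, which had 342 to 476 CPM in the P1 controls, 95.9 in control 5 and 56.7 to 92.0 with 4AP, -0.39 from control 5. Of 55 translation factors 3 fell (5.45%), eif4h, eif4ebp1 and eif1axa, which were -0.52, -0.13 and -0.81 from control 5. eif4h, a helper of the helicase eIF4A, fell by 1.96 on all reads, but 74.2% of those were in introns and its exon reads gave 0.63 ± 0.56 (edgeR adjusted p = 0.433), the opposite sign. Of 34 proteasome genes 5 fell (14.7%), psma2, psma3, psma6a, psmd10 and the assembly chaperone psmg1, which were -0.86 to 0.33 from control 5, with a median of -0.26 for the list and -0.22 against control 5. Under library totals the medians of these 3 lists were above 0, at 0.19, 0.29 and 0.11, which is below the all-gene median of 0.55.

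Of 44 heat shock proteins and chaperones 5 fell and 1 rose, with a median of -0.12 that was 0.24 under library totals. These shares, 11.4% and 2.27%, were close to the 10.1% and 2.98% of all genes. Besides hspb1, hspa4a, a co-chaperone of Hsp70, had 247 to 360 CPM in the P1 controls, 217 in control 5 and 99.0 to 204 with 4AP; the groups did not overlap and it was -0.83 from control 5. The mitochondrial chaperonin hspe1 and the J-domain genes dnajc15 and dnajc19 also fell and were -0.49, 0.25 and -0.99 from control 5, and bag3, which links Hsp70 to autophagy, rose by 2.25 (edgeR adjusted p = 0.0322) and was 0.95 above control 5. Of 33 lysosomal, V-ATPase and adaptor genes 5 fell (15.2%, beside 10.1% of all genes). ap3b1a, a subunit of the AP-3 complex of lysosomal sorting, had 156 to 451 CPM in the P1 controls, 51.7 in control 5 and 16.7 to 34.1 with 4AP, with no overlap, and was -1.02 from control 5. ctsa, cathepsin A, had 4250 to 4760 CPM in the P1 controls, 575 in control 5 and 552 to 784 with 4AP, and was 0.24 above control 5; 98.9% of its reads were in introns. The other 3, npc2, atp6ap1b and ap3m1, were -0.18, -0.02 and 0.06 from control 5.

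Regulators of chromatin and RNA had scattered calls. Of 59 chromatin remodellers and histone modifiers 3 rose (5.08%) and 1 fell (1.69%), beside 2.98% and 10.1% of all genes, with a median of 0.57. The histone methyltransferase gene kmt2ca had 8.42 to 29.1 CPM in the P1 controls, 97.1 in control 5 and 103 to 151 with 4AP, and was 0.24 above control 5. The acetyltransferase gene crebbpb rose by 1.18 (edgeR adjusted p = 0.0378), from 13.6 to 33.2 CPM in the P1 controls and 36.6 in control 5 to 53.1 to 76.1 with 4AP, and was 0.75 above control 5. The demethylase gene kdm6a rose by 2.07 and was 1.22 above control 5. smarca1, an ISWI ATPase, fell by 1.68 and was 0.32 above control 5.

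Of 74 splicing regulators and RNA-binding proteins 2 rose (qki2 and msi2b) and 4 fell (srsf2a, hnrnph1l, rbm48 and rbfox3a). These shares were 2.7% and 5.41%, beside 2.98% and 10.1% of all genes. hnrnph1l, rbm48 and rbfox3a were 0.04, 0.54 and 0.09 above control 5. srsf2a, a splicing factor of the SR family, had 105 to 138 CPM in the P1 controls, 68.1 in control 5 and 34.1 to 59.7 with 4AP, without overlap; it fell by 1.29 (edgeR adjusted p = 0.0157) and was -0.61 from control 5. msi2b, a Musashi RNA-binding protein, rose by 1.15 on all reads (edgeR adjusted p = 0.0342), also passed on exon reads (edgeR adjusted p = 0.036), and was 0.57 above control 5. The ubiquitin ligase gene ube3a had 4.21 to 22.7 CPM in the P1 controls, 17.7 in control 5 and 25.1 to 80.8 with 4AP. The P1 values of ube3a lie at or near the level of a few reads. Control 5 lay among the P1 controls, the groups did not overlap, and 5.36% of its reads were in introns; the change was 1.68 ± 0.48 (edgeR adjusted p = 0.0291) and 1.36 against control 5.

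Cell cycle genes gave no common direction: of 22 tested 1 rose (4.55%) and 2 fell (9.09%), beside 2.98% and 10.1% of all genes. ccnd2a, cyclin D2, had 22.7 to 114 CPM in the P1 controls, 168 in control 5 and 182 to 322 with 4AP, and was 0.36 above control 5. top2a, the topoisomerase of dividing cells, fell by 1.52 (edgeR adjusted p = 0.0291) and was -0.53 from control 5, and hmgb2b, a chromatin protein, fell by 1.2 (edgeR adjusted p = 0.0152) and was -0.57 from it. Of 8 Krüppel-like factors klf7a and klf7b rose (25%) and klf2a and klf9 fell (25%), beside 2.98% and 10.1% of all genes. klf7a had 0 to 7.27 CPM in the P1 controls, 25.2 in control 5 and 38.8 to 53.1 with 4AP. Its P1 values, like those of klf7b, lie at or under the level of a few reads. klf7a was 0.78 above control 5, and klf7b and klf9 were 0.30 and -0.42 from it. Of 13 clock genes per2, a light-induced repressor of the clock in zebrafish, rose by 1.3 (edgeR adjusted p = 0.0393) and was 0.70 above control 5. It made up 7.69% of the clock genes tested, beside 2.98% of all genes that rose.

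Of 25 actin genes and regulators 3 fell (12%, beside 10.1% of all genes) and 0 rose, and the 3 were arpc3, cfl1l and pfn1; control 5 had 208, 236 and 674 CPM of them, and the 4AP libraries had 136 to 213, 217 to 300 and 676 to 782. They were -0.28, 0.17 and 0.08 from control 5. Of 16 motor genes klc1a rose by 2.06 and was 0.96 above control 5, and kif16bb fell by 2.01 and was 0.56 above it. Each is 6.25% of the motor genes, beside 2.98% of all genes that rose and 10.1% that fell. Of 10 tubulins tuba8l2 (10%) fell by 1.5 (edgeR adjusted p = 0.01) and was -0.35 from control 5.

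Markers of other cells did not all stand alike. Pancreas and microglia shares were higher in the P1 controls than in all other libraries. Neuron and red blood cell shares were lower in the P1 controls than in all other libraries. Muscle, skin and radial glia shares overlapped between P1 controls and 4AP libraries. Of 18 pancreas genes tested, the digestive enzymes of the exocrine pancreas, 13 fell (72.2%, beside 10.1% of all genes) and 0 rose. The list's summed reads made up 2.79% to 5.81% of the P1 controls, 1.76% of control 5 and 0.831% to 1.95% of the 4AP libraries. All 18 lay below control 5. ela2l, an elastase, had 8220 to 20900 CPM in the P1 controls, 3250 in control 5 and 1080 to 3110 with 4AP. Of 19 muscle genes 4 fell (21.1%, beside 10.1% of all genes). The muscle list's summed share was 0.704% to 1.57% in the P1 controls, 0.851% in control 5 and 0.42% to 1.33% with 4AP. Of 19 skin genes 4 fell (21.1%), and that list's share was 1.25% to 1.98%, 0.816% and 0.939% to 1.57%. Of 14 radial glia genes 3 fell (21.4%), slc1a3a, ptgdsb.1 and glulb, which were -0.59, -0.31 and -0.29 from control 5. The radial glia share was 0.191% to 0.253% in the P1 controls, 0.312% in control 5 and 0.205% to 0.315% with 4AP.

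Of 21 microglia and macrophage genes 3 were tested and 2 fell (66.7%, beside 10.1% of all genes). They were apoeb and lcp1, which were -0.13 and -0.39 from control 5. The list's summed share was 0.0952% to 0.152% in the P1 controls, 0.0592% in control 5 and 0.0519% to 0.0654% with 4AP. The defining marker mpeg1.1 had 0 to 5 reads in every library. Neuronal markers took 0.0615% to 0.0976% of the P1 controls, 0.119% of control 5 and 0.0989% to 0.144% of the 4AP libraries, and 1 of 9, rbfox3a, fell. Red blood cell markers took 0.0377% to 0.12%, 0.74% and 0.187% to 0.676%, with 0 of 6 called by edgeR or DESeq2 and 0 at an unadjusted p under 0.05 by edgeR, although 6 of 6 rose without control 5, and the only endothelial gene tested was not called. Beside the P1 controls, the shares of pancreas and microglia transcripts were low in control 5 as in the 4AP libraries. Those of neuronal and red blood cell transcripts were high in both. Control 5 was nearer to the 4AP mean than to the P1 mean for 80.1% of all genes tested. The part of other cells in the results on nuclear oxidative phosphorylation genes was not tested.

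Higher and lower genes also differed in where their reads lay. Genes with over 50% of their reads in introns made up 29.5% of those tested, 61% of the 154 higher genes (94) and 17.5% of the 520 lower genes (91). The median gene span was 123 kb for the higher genes, 8.69 kb for the lower ones and 24.5 kb for all. Because the intron share of the libraries itself differed between the P1 controls and the rest, its part in these results was not tested; on exon reads 30 genes were higher and 164 lower, and on intron reads 9 and 156 of 1442 (0.624% and 10.8%). Of the 72 genes chosen for naming, 52 could be tested on exon reads, and 31 of these passed there. Those with an exon call whose 4AP mean was also at least 1 log2 unit from control 5 in the same direction, a selection made after the values were seen and given with no test, were fosab, egr4, hspb1, zfand2a, hes2.2, aclya, sfrp5 and ube3a.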

How the data were processed

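Sorted zebrafish OPC libraries were prepared with a 3' transcriptome kit, per the labels' protocols. The deposited tables give, per the file headers, whole-number read counts per gene (exon, intron and total gene reads) with gene coordinates. The build is GRCz11, per the submitters' processing notes; the aligner, the use of molecular identifiers and strand, and the meaning of the P1 and P2 prefixes are not given in the sources used here. Total gene reads were used, with 163158 to 1744483 per library; all pairs of libraries differed by more than sampling noise, and 0 columns of per-sample values were left unmapped.

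Genes were kept by edgeR's filterByExpr (minimum count 10, minimum total 15), scaled by TMM, and tested with edgeR 4.0.16 (quasi-likelihood, robust, treatment as the only term, Benjamini-Hochberg adjustment over 5161 genes) in R 4.3.3. The script was tested on simulated data. CPM values are relative to the TMM-scaled library size, and log2 CPM differences used a prior count of 2; differences from the P1 controls or control 5 are means of log2 CPM and the fold changes are edgeR's. Library measures were compared by a two-sided exact permutation test of 5 against 5, whose smallest p is 0.00794.

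Genes were named by rule: the 6 higher and 6 lower called genes with the largest smaller difference from both kinds of control, the 2 called genes with the lowest p in each list with at least 3 calls (mean of at least 20 reads for both), and all called genes of the OPC identity, myelin and immediate early lists. Of the 72 so chosen, CR759968.2, CABZ01056843.1, ube3a, c6ast3 and zfand2a are on no list. Other called members were named after their values were seen. Lists and members were chosen with earlier results of these data known. Genes on several lists count in each. Alternatives were other scaling (DESeq2 1.42.0 size factors, library totals), the DESeq2 test, no filter, exon or intron reads, thinning, a replicate block, a prefix term, P2 libraries only, and each library left out. No sequences are shown. The result of 1 gene list is not reported here. Exons, UTRs and strand of the genes were not annotated here.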

Additional observations from a re-analysis of the deposited data

Results flagged for a closer look

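In groups of 5 libraries, a library was singled out when its gap to the nearest other library was a large part of the group's range (Dixon's ratio at the 95% level, which chance passes in about 1 of 20 groups). Of 152 groups looked at, from the library measures and the 72 named genes, 25 had such a library, and in 15 it was control 5.

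Control 5 stood apart from controls 1 to 4 in total reads (898000), genes detected (20300) and intron reads (20.5%). It also stood apart, in CPM, for wnt5b (32.8), notch1a (68.1), gpm6ab (300), cdh11 (406), kmt2ca (97.1) and klf7a (25.2), where it was the highest control. It was the lowest control for dock3 (344), cox7a2a (277), atp5po (380), rpl7l1 (40.4), ctsa (575) and grm8a (98.4). Among the other controls, control 2 was high for c6ast3, at 476 CPM.

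Among the 4AP libraries, library 5 was high for rtn4r (53.1 CPM), hspb1 (154), hspa4a (204) and kmt2ca (151). Library 1 was high for klf2a (44.6) and sfrp5 (175) and low for grin1b (11.1). Library 3 was high for timm9 (32.8) and mrpl30 (40.3). No cause of these values was tested.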

How the results depend on the processing

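The main counts were 674 genes called, 154 higher and 520 lower. Called genes numbered 194 on exon reads, 165 on intron reads and 312 after thinning to the smallest library, which tests fewer genes; higher and lower genes were 30 and 164, 9 and 156, and 91 and 221. Higher genes numbered 411 with library totals, 357 with the DESeq2 test and 369 with no filter, and lower genes 207 with library totals; the cause was not tested. With the prefix as a term, or with P2 libraries only (also on the 5161 genes of the comparison, chosen after seeing the data), edgeR called 0 genes in either direction, with 106, 532 and 247 at an unadjusted p under 0.05; control 5 is then the only control that carries the comparison. Leaving out 1 library at a time gave 271 to 2140 called, 24 to 1155 higher and 247 to 985 lower. The calls moved by over 1.5 times without controls 1 (373), 2 (271), 3 (379) and 5 (2140) and without 4AP libraries 2 (364), 4 (414) and 5 (389).

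The replicate block gave 448 calls (143 higher, 305 lower). The numbers do not pair the libraries: deviations of same-numbered libraries correlated at -0.04 to 0.11, and 2 of 5 matched their own number best.

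The library measures differed, 4AP minus control with control 5 included, by 602000 reads (adjusted p = 0.111, exact permutation test, over 4 measures), 8230 genes (0.0952), -6.82 points of intron reads (0.116) and 3.78 points of mitochondrial reads (0.27). Over the fits that leave out 1 library they ranged from 411000 to 758000, 7590 to 10200, -10 to -5.53 and 2.43 to 6.39. Without control 5 all 4 passed (exact adjusted p = 0.0317, 0.0159, 0.0159 and 0.0397), and without 4AP library 1 the first 2 did (0.0476 each).

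All 72 named genes passed without control 5 and 0 passed with the prefix term or with P2 libraries only. The call was lost by 23 without control 1, 33 without control 2, 24 without control 3, 14 without control 4, and 15, 18, 9, 16 and 19 without 4AP libraries 1 to 5. It was lost by 14 with library totals, 12 with the replicate block, 8 with no filter and 20 of 52 on exon reads. Signs reversed, for the prefix term, P2 libraries only and P2 libraries on the same genes, for ctsa (0.25, 0.21, 0.26), cfl1l (0.18, 0.15, 0.19), grm8a (0.40, 0.37, 0.41), gpc6a (0.28, 0.25, 0.29), icn2 (0.0532, 0.0159, 0.0573) and pfn1 (0.081, 0.0436, 0.086), for klf2a with the prefix term (0.0145), and for eif4h on exon reads (0.63). Under library totals the medians of the mitochondrial import, cytosolic ribosome, translation factor, proteasome, chaperone, unfolded protein response, lysosome, actin and radial glia lists turned from below 0 to above it.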

Other observations

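Besides ube3a and zfand2a, 3 genes on no list were named by the rule on differences from both kinds of control. CR759968.2 rose by 1.95 and was 1.38 above control 5, with all of its reads in introns and 153 CPM in 4AP library 1 against 35.1 to 73.8 in the other 4. CABZ01056843.1 rose by 1.75, from 4.53 to 21.8 CPM in the P1 controls and 13.9 in control 5 to 27.9 to 70.2 with 4AP. c6ast3, an astacin-like metalloproteinase gene by its name, fell by 1.67, and control 5 (160 CPM) lay within the range of the P1 controls (109 to 476), with 32.4 to 112 CPM in the 4AP libraries.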
